A study of Mus musculus with 2 samples.

Results

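Mitotic bone marrow progenitors that carried little RNA of 4 lineage genes were picked out from single-cell RNA counts of wild-type (WT) and IκB– mice. A cell belonged to the gate when at least 4 of the 6 mitotic genes Ccnb1, Ccnb2, Cdc20, Plk1, Cenpe and Cenpa each had at least 1 UMI (a distinct RNA molecule). In addition the cell had to hold fewer than 20 UMIs of Mpo, fewer than 5 of Car1, fewer than 3 of Pf4 and fewer than 3 of Dntt. Of 18029 cells that passed the authors' quality call, 1145 (6.35%) met this rule, 409 in replicate 1 and 736 in replicate 2. The cells were LSK cells, sorted as Kit-high and Sca-1-positive without lineage markers, a marrow fraction of stem cells and early progenitors, from the long bones of young mice. WT and IκB– cells, the latter called IkBKO in the deposited cell table, were tagged with hashing antibodies and run together in 1 droplet library in each of the 2 replicates, which gave 4 pools (2 per genotype). No treatment is named for either genotype. The sources used here do not give the altered IκB alleles or the number of mice in a pool. The p-values within the gate rest on 4 pools with 1 residual degree of freedom and on a spread that was shared across genes. Those of a comparison with cells that had none of the 6 mitotic genes rest on 8 pools with 2 residual degrees of freedom.

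The libraries held 42165571 to 62834572 UMIs per genotype and replicate over 3721 to 5383 cells, and the median cell carried more UMIs in IkBKO (13709 and 9641 in replicates 1 and 2) than in WT (9963 and 6983). Xist, the RNA of the inactive X chromosome, was found in gate cells of replicate 1 at 1872 (WT) and 1625 (IkBKO) CPM (counts scaled to 1000000 UMIs in each pool), whereas replicate 2 showed 0 and 0.16 CPM, so the replicates came from mice of different sex while the genotypes within a library did not differ in this way. Of 39 cell barcodes found in both libraries, 2 lay in the gate in replicate 2 and 0 in replicate 1.

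Entry into mitosis is driven by cyclin B and its kinase partner, together with Polo-like kinase Plk1. The anaphase-promoting complex with its activator Cdc20 then destroys cyclin B so that sister chromatids can part. Cenpa is the histone H3 variant that marks centromeres and Cenpe a kinetochore motor, and transcripts of all of these genes accumulate from G2 until division. Mpo is the myeloperoxidase of neutrophil and monocyte precursors, Car1 a carbonic anhydrase of erythroid cells, Pf4 a chemokine of megakaryocytes and Dntt the terminal transferase of lymphoid progenitors. Stem cells divide rarely and their progeny often, and IκB proteins hold the transcription factor NF-κB inactive in the cytoplasm.

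The share of cells in the gate depended on the population it was taken from. Of all cells, 5.16% of WT (192 of 3721) and 5.48% of IkBKO cells (217 of 3962) lay in the gate in replicate 1, and 5.78% of WT (287 of 4963) and 8.34% of IkBKO cells (449 of 5383) in replicate 2. The 95% exact (Clopper-Pearson) binomial intervals were 4.47 to 5.92% and 4.79 to 6.23% in replicate 1 and 5.15 to 6.47% and 7.62 to 9.11% in replicate 2, and these cover counting error only. The genotypes thus overlapped in replicate 1 and were apart in replicate 2, and the mean difference of 1.44 percentage points (SD 1.58, n = 2 replicates) was smaller than its spread between replicates. In replicate 1 the difference also changed sign, to −0.01 points with at least 3 mitotic genes required and to −0.15 points with stricter lineage limits.

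Among the cells within the 4 lineage limits, the gate held a larger share in IkBKO in both libraries. It took 7.75% of such WT cells and 12.6% of such IkBKO cells in replicate 1, and 7.6% and 12.5% in replicate 2. The difference was 4.86 points (SD 0.08, n = 2 replicates), 1.62-fold and 1.65-fold. Mitotic cells of any lineage likewise made up 11.4% of all WT and 24.5% of all IkBKO cells in replicate 1 and 10.1% and 19.04% in replicate 2. The cells within the limits, however, fell from 66.6% of WT to 43.6% of IkBKO cells in replicate 1 and from 76.0% to 66.6% in replicate 2 with all UMIs counted. Both shares changed when cells were thinned to equal depth, as given next. An exact permutation test over 4 pools cannot give a two-sided p below 0.333, so no test was made of these shares.

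Depth moved with genotype, and a deeper cell can show more of the 6 genes and reach a limit set in UMIs sooner. It also differed between kinds of cells, with medians of 16232.5 to 24930.5 UMIs in mitotic cells that reached a lineage limit. Depth and the mix of cells therefore cannot be told apart here. After every cell was thinned to 5000 UMIs, with 188 WT and 102 IkBKO cells of replicate 1 and 956 and 503 of replicate 2 left out as too shallow, the gate held 4.55% of WT and 6.54% of IkBKO cells within the limits in replicate 1 and 6.74% and 9.73% in replicate 2. The ratio was then 1.44 in both replicates. Of all cells, the thinned shares were 3.54% and 4.09% in replicate 1 and 5.44% and 7.77% in replicate 2. Mitotic cells of any lineage then made up 5.09% of WT and 7.88% of IkBKO cells in replicate 1 and 7.04% and 10.18% in replicate 2, so that the differences of 13.1 and 8.91 points became 2.79 and 3.14 points and the ratios of 2.15 and 1.88 became 1.55 and 1.45. Cells within the limits were 77.75% of WT and 62.6% of IkBKO cells in replicate 1 at 5000 UMIs, but 80.8% and 79.8% in replicate 2, and at 3000 UMIs 84.7% and 78.8%, then 87.5% and 86.6%. In replicate 2 these thinned shares lay close together. The limits kept their UMI numbers in thinned cells, however, and so excluded fewer cells, so these shares cannot tell what part depth had. Under stricter limits with all UMIs, cells within them were 36.8% of WT and 21.4% of IkBKO cells in replicate 1. In replicate 2 they were 48.5% and 34.1%. Gate cells carried a median of 14731 (WT) and 14468 (IkBKO) UMIs in replicate 1 and 13316 and 13569 in replicate 2, against 6110 to 8208 in cells within the limits that had none of the 6 mitotic genes, called non-mitotic cells here. Within the gate the genotypes therefore differed little in depth.

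**Figure D1:**
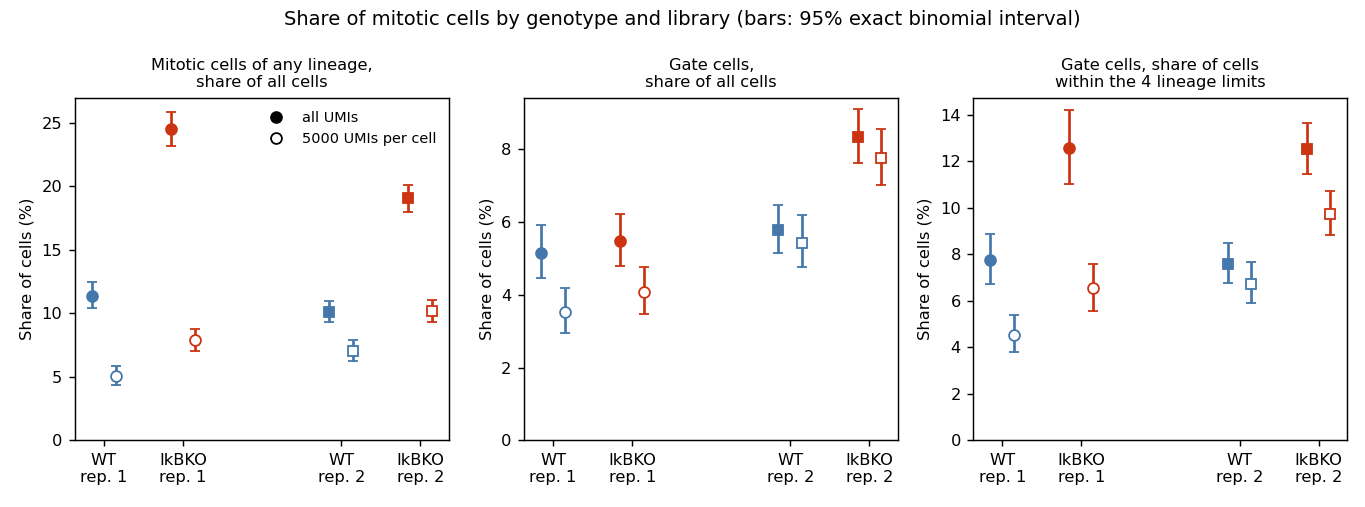
Shares of cells in percent (vertical axes from 0) by genotype and replicate, with all UMIs (filled) and with 5000 UMIs per cell (open), and 95% exact binomial intervals as bars. Blue points are WT and red points IkBKO; in the right-hand panel the shares rise from 7.75% to 12.6% and from 7.6% to 12.5% with all UMIs.

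Most gate cells showed more of the 6 mitotic genes than the rule asks for. All 6 genes were seen in 40.6% of WT and 32.7% of IkBKO gate cells of replicate 1 and in 50.5% and 44.1% of replicate 2, while 4 of 6, the fewest allowed, were seen in 30.2%, 34.1%, 22.6% and 26.7% in the same order. Cells just inside the threshold (4 of 6) held a median of 8 to 9 UMIs of the 6 genes together and cells just outside (3 of 6) held 5, with 67 to 161 such cells per pool. At the Mpo limit, 8 and 24 WT and IkBKO gate cells of replicate 1 and 4 and 29 of replicate 2 held 15 to 19 UMIs, and 11, 16, 5 and 32 mitotic cells that met the other limits held 20 to 24. Mpo was at 0 UMIs in 23.4% and 30.0% of WT and IkBKO gate cells of replicate 1 and in 43.9% and 42.3% of replicate 2. Across the genotypes the excluded mitotic cells were of different kinds: the Mpo limit was reached by 45.7% of such WT cells and 77.3% of such IkBKO cells in replicate 1 and by 8.8% and 40.6% in replicate 2, whereas the Dntt limit was reached by 33.2% and 6.0%, then 75.9% and 23.3%.

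The 4 limits did not remove every committed cell, so "without lineage commitment" held only for the lineages of those 4 genes. Irf8, a transcription factor of monocyte and dendritic cell progenitors, reached at least 5 UMIs in 9.4% of WT and 14.3% of IkBKO gate cells of replicate 1 and in 1.7% and 14.5% of replicate 2. Counting in addition any cell with at least 5 UMIs from a list of mature neutrophil, B, T and NK, erythroid, mast cell and basophil, monocyte and dendritic, or stromal markers, 39 of 192 WT gate cells (20.3%) and 51 of 217 IkBKO gate cells (23.5%) of replicate 1 were set apart, and 25 of 287 (8.7%) and 103 of 449 (22.9%) of replicate 2. Such cells, called cells of other lineages below, were thus least frequent in WT replicate 2. Cells with fewer UMIs of these genes were not set apart. The monocyte and dendritic list was the one most often reached in IkBKO, by 37 and 82 cells, against 18 and 13 in WT. Summed levels of that list were 196 and 120 CPM in WT against 299 and 311 CPM in IkBKO gate cells, and the 9 markers were all detected. The mature neutrophil list summed to 7899 CPM in WT replicate 2 and to 16.3 to 93.0 CPM in the other pools, and the part of these cells in the genotype differences is given below by leaving all of them out.

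At the same 5000 UMIs per cell, Hlf was seen in many gate cells and other stem cell transcripts in fewer. Hlf, a stem cell transcription factor, had a UMI in 55.3% of WT and 30.1% of IkBKO gate cells of replicate 1 and in 74.1% and 57.5% of replicate 2, and in 72.4%, 48.4%, 89.9% and 74.2% before thinning. In cells with at least 20 Mpo UMIs, which should largely lack it, the thinned shares were 15.9%, 6.7%, 10.0% and 22.5%, at median depths before thinning of 19455 to 22890 UMIs against 13398 to 14777 in the gate. Mecom, another stem cell transcription factor, had a UMI in 10.2 to 25.2% of gate cells over the 4 pools (23.5 to 48.4% before thinning), against 1.7 to 6.9% of the Mpo-high cells. Procr, the protein C receptor, was seen in 2.8 to 9.7% (6.9 to 20.6% before thinning) and Slamf1, which encodes CD150, in 1.6 to 2.8% (3.1 to 6.9%), against at most 2.2% and 0.2% of the Mpo-high cells. Mpo itself had a UMI in 55.8%, 56.5%, 40.6% and 46.7% of gate cells, against 51.5%, 61.6%, 36.6% and 61.1% of cells with at least 3 Dntt UMIs (median depths 9245 to 13192), and before thinning in 76.6%, 70.0%, 56.1% and 57.7% of gate cells. Cells with Dntt are not known to lack Mpo, so no background was read from them. Of gate cells, 38.0%, 35.9%, 17.8% and 33.2% held 5 to 19 Mpo UMIs.

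The mitotic programme beyond the 6 genes was high in gate cells, as the rule brings about, and these values are a description without a test. The summed CPM of cyclins and mitotic kinases was 6.16 to 7.85 times that of non-mitotic cells over the 4 pools, that of kinetochore and centromere genes 5.67 to 8.27 times, and that of chromosome condensation and cohesion genes 4.26 to 5.11 times. Mki67, a proliferation antigen that coats mitotic chromosomes, stood at 629 and 799 CPM in WT against 602 and 712 CPM in IkBKO gate cells, against 19.5 to 29.4 CPM in non-mitotic cells. Genes of G1/S and DNA replication were level, at 0.92 to 1.02 times. Stem cell identity genes were at 0.62 to 0.69 times and immediate-early genes at 0.55 to 0.66 times the non-mitotic level in all 4 pools.

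**Figure D2:**
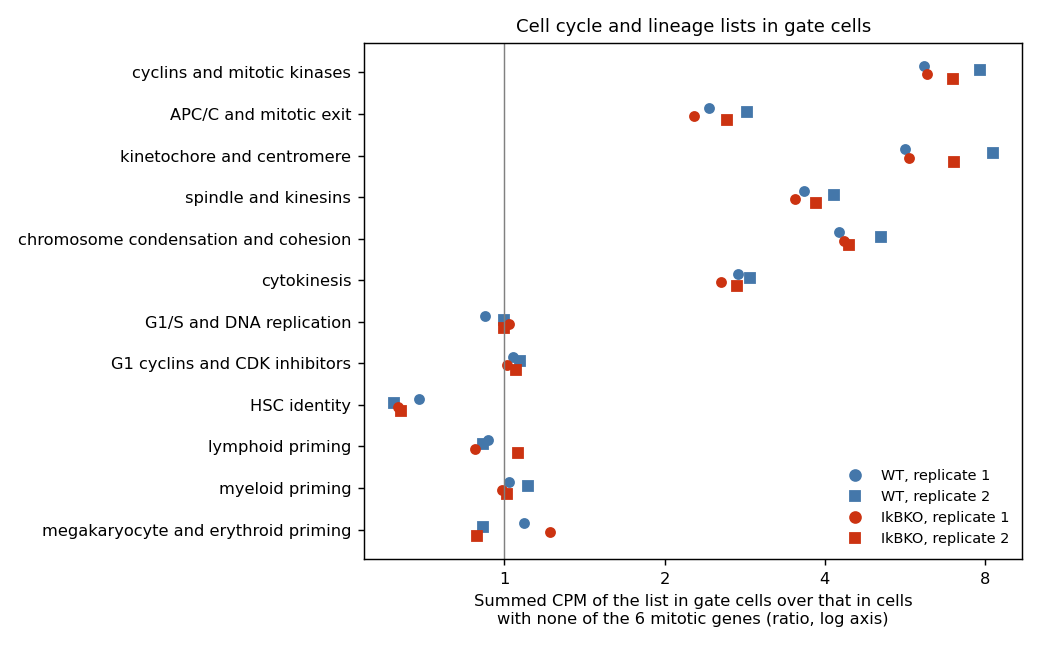
Summed CPM of each gene list in gate cells divided by that in non-mitotic cells (horizontal log axis, ratio without unit), with a point for each of the 4 pools. The 6 mitosis lists lie at 2.27 to 8.27, the G1/S list at 0.92 to 1.02 and the stem cell identity list at 0.62 to 0.69.

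Since the rule picks cells by the 6 mitotic genes, their levels in the gate are a description from which no likeness of the genotypes is read. Cenpa stood at 387 and 521 CPM in WT against 426 and 542 CPM in IkBKO gate cells, Ccnb2 at 276 and 301 against 273 and 291 CPM, and Plk1 at 79.2 and 110 against 74.4 and 95.5 CPM. Ccnb1 stood at 128 and 178 against 136 and 155 CPM, Cdc20 at 182 and 229 against 173 and 187 CPM, and Cenpe at 184 and 217 against 159 and 212 CPM. Promoters of such genes often carry CCAAT boxes, bound by NF-Y, and a cell cycle homology region (CHR, TTTGAA), bound by the DREAM and MuvB complexes. Ccnb2 and Cdc20, the pair among the 6 whose 250 bases before the start held matches to both motifs, are shown because they carry the elements by which this class of genes is known. The 150 bases before the start (RefSeq, GRCm38.p6) lie at chr9:70421555-70421704 on the minus strand for Ccnb2 and at chr4:118437344-118437493 on the minus strand for Cdc20, and capitals mark CCAAT and TTTGAA.
Ccnb2: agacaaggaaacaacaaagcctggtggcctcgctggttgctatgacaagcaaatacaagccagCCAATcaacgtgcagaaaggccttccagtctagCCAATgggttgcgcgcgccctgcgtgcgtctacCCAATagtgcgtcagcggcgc
Cdc20: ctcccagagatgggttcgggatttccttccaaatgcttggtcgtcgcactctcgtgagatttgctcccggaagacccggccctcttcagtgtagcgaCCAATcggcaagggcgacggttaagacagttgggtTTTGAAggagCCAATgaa
The Ccnb2 stretch holds CCAAT 3 times and its match to TTTGAA lies outside the letters shown. Both strands were searched, with ATTGG as the complement of the first motif and TTCAAA as that of the CHR. The CCAAT box occurred in the 250 bases before the start of all 6 genes, against 34.5% of 27025 promoters, and the CHR in those of Ccnb2 and Cdc20, against 16.3% of promoters. Both motifs together occurred in 5.7%.

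Within the gate, antigen presentation and immediate-early genes were the lists with the largest share of tested members called between IkBKO and WT cells. By the median fold change other lists lay further from 0, such as the monocyte and dendritic list (1.55, 4 of 8 called) and the mature neutrophil list (−6.76, 0 of 5 called). UMIs were summed per pool and tested with edgeR's quasi-likelihood test with the replicate as a block, two-sided, at a Benjamini-Hochberg adjusted p of at most 0.05. Among 10752 genes, 346 were called higher (3.22%) and 213 lower (1.98%) in IkBKO, 5.20% in all, and the whole 559 moved the same way in both replicates. The median log2 fold change over all tested genes was 0.00, and 1674 genes had an unadjusted p under 0.05. The number called was not stable: DESeq2 with the same block called 42 and 13 genes (0.391% and 0.121%, 0.512% in all), edgeR without the block 52 and 19, and leaving out 1 pool left 92 and 34 (without WT replicate 1), 150 and 59 (without IkBKO replicate 1), 20 and 10 (without WT replicate 2) or 188 and 112 (without IkBKO replicate 2). The fits without 1 pool also carried no replicate block, so the difference between libraries enters them. Without the cells of other lineages 179 genes were higher (1.72%) and 126 lower (1.21%) out of 10394 (2.93% in all), 257 of them among the 559.

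Of the 74 called genes named here, 13 kept their call without each of the 4 pools in turn: AA465934, Cd300c, Gdpd3, Shtn1, Ccl5, H2-Eb1, H2-Aa, H2-DMb2, Ciita and Ly6a, which were higher in IkBKO, and Fos, Tox and Hist3h2ba, which were lower. Cd300c, Shtn1 and Ccl5 were not called at 5000 UMIs per cell. By DESeq2 Cd300c and Shtn1 did not pass either (adjusted p of 0.64 and 0.14), and both had too few UMIs to be tested without cells of other lineages. Cd300c is on the monocyte and dendritic list by which such cells were set apart. H2-Eb1 and H2-Aa were not called without the 5% of cells with most UMIs, nor was H2-Aa with at least 5 mitotic genes required. AA465934 (chr11:83291699-83294632, plus strand, annotated as a processed transcript) had the largest fold change of the named genes that were higher. Its level was 2.71 and 3.04 CPM in WT against 139 and 99.5 CPM in IkBKO gate cells, a log2 fold change of 5.35 (SE 0.20, edgeR adjusted p = 4.8e-30). It was seen in 8 of 192 and 10 of 287 WT cells and in 166 of 217 and 309 of 449 IkBKO cells, so the genotypes were apart in the number of cells with a UMI as well as in level. Gdpd3 (chr7:126766334-126775649, plus strand), a lysophospholipase D, stood at 2.71 and 0.76 CPM in WT against 36.9 and 32.9 CPM in IkBKO (log2 4.45, SE 0.29, adjusted p = 3e-17). Ccl5, a chemokine and NF-κB target, stood at 1.69 and 3.04 against 13.7 and 21.5 CPM (log2 2.90, SE 0.33, adjusted p = 1e-09), with 44.2% of its UMIs in IkBKO replicate 1 from a single cell. Hist3h2ba, a histone H2B gene, was lower, at 15.6 and 22.5 CPM in WT against 2.54 and 1.75 CPM in IkBKO (log2 −3.23, SE 0.33, adjusted p = 4.7e-11).

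**Figure D3:**
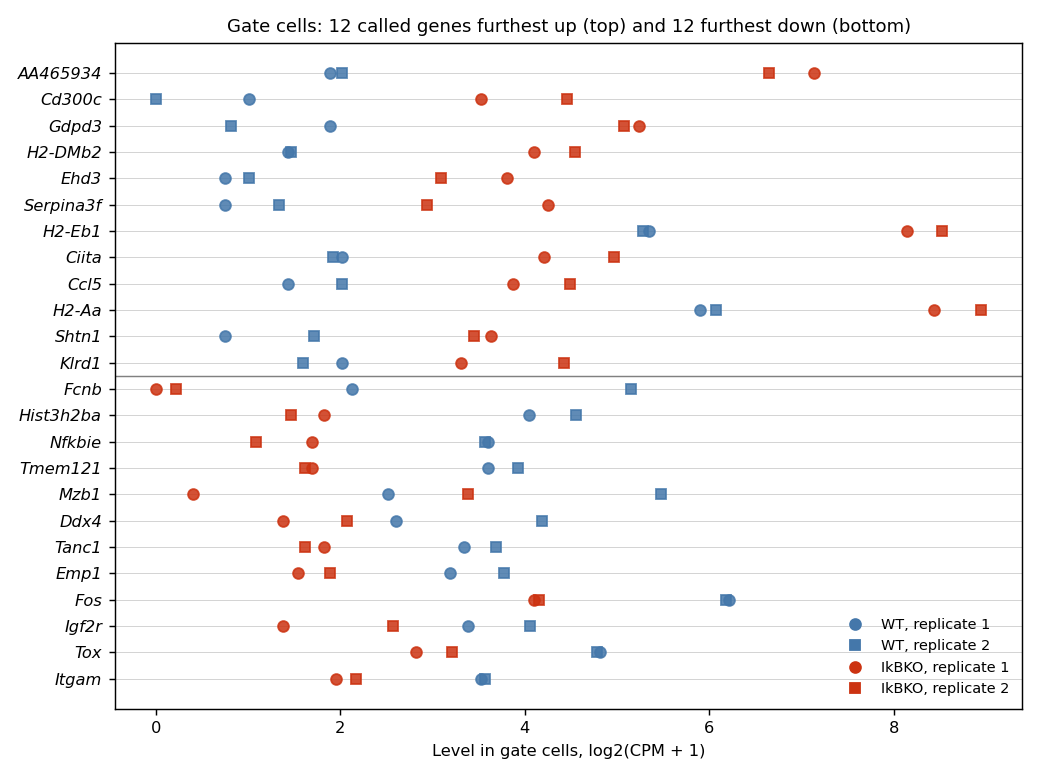
Levels in gate cells as log2(CPM + 1) on the horizontal axis for the 12 called genes with the highest and the 12 with the lowest fold change, with a point for each of the 4 pools (blue WT, red IkBKO; circles replicate 1, squares replicate 2). The genotypes do not overlap for H2-Eb1, at 37.9 to 39.6 CPM in WT and 282 to 367 CPM in IkBKO, and overlap for Mzb1, where WT replicate 1 lies below IkBKO replicate 2.

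Genes of antigen presentation rose together in IkBKO gate cells. Of 15 listed genes, all tested, 14 were higher and 0 lower, with a median log2 fold change of 0.98 against 0.00 over all genes. Of all genes 3.22% were called higher. The rise was not particular to the gate: in non-mitotic cells of the same pools 15 of 15 were higher and 0 lower, with a median of 0.99. There 5.73% of all genes were called higher. H2-Eb1 (chr17:34305867-34316674, plus strand), an MHC class II beta chain, stood at 39.6 and 37.9 CPM in WT against 282 and 367 CPM in IkBKO (log2 3.10, SE 0.10, adjusted p = 1e-28). It was detected in 18 and 29 WT gate cells and in 102 and 196 IkBKO gate cells, and 39.3% and 54.7% of the WT UMIs came from the single highest cell of each pool. H2-Aa, the class II alpha chain (chr17:34282744-34287823, minus strand), stood at 58.5 and 66.5 against 345 and 493 CPM (log2 2.77, SE 0.09, adjusted p = 8e-31), and no IkBKO pool reached down to a WT pool. Ciita, the master coactivator of class II genes (chr16:10480059-10528418, plus strand), stood at 3.04 and 2.78 against 17.5 and 30.3 CPM (log2 3.10, SE 0.29, adjusted p = 2e-12). Class I genes moved less: B2m, the light chain, stood at 1325 and 1330 against 1746 and 1664 CPM (log2 0.39, SE 0.04, adjusted p = 7.5e-10), and H2-Q7, whose reads may be shared with near-identical Qa genes, at 319 and 298 against 623 and 572 CPM (log2 0.98, SE 0.07, adjusted p = 4.8e-17). The 1 listed gene that missed the threshold was Cd74, the invariant chain, at 119 and 101 against 667 and 976 CPM (log2 2.92, SE 0.35, adjusted p = 0.32).

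Class II genes are also genes of dendritic cells, whose markers moved the same way. Of 8 tested monocyte and dendritic markers, 4 were higher and 0 lower, where 3.22% of all genes were called higher, and DESeq2 called 1. Among the 4 were Ms4a6c (84.2 and 48.8 CPM in WT, 154 and 142 CPM in IkBKO) and Batf3 (3.04 and 2.02 against 10.8 and 7.34 CPM). Ly6c2, Ccr2, Siglech and Naaa did not pass (edgeR adjusted p of 0.22, 0.2, 0.8 and 0.34). With the cells of other lineages left out, 12 of 13 tested genes of antigen presentation were called higher, where 1.72% of all genes were, and the list median was 0.62. Irf8 was at 0 UMIs in 156 of 217 and 325 of 449 IkBKO gate cells and reached 5 UMIs in 31 and 65. Cells with 1 to 4 Irf8 UMIs could thus stay in, so this setting is not free of such cells. Ciita and H2-DMb2 had too few UMIs to be tested in this setting, so their rise has no value without cells of other lineages. H2-Eb1 then gave 3.49 (adjusted p = 4.9e-09), while H2-Aa gave 2.52 and no longer passed (adjusted p = 0.12). In a fit without the 5% of cells with most UMIs, 10 of the 15 genes were called higher and 0 lower, with a median of 0.96. Without 1 pool, 6 (without WT replicate 2) to 10 of the 15 genes were called higher and 0 lower, and DESeq2 called 11. At 5000 UMIs per cell, H2-Aa had a UMI in 5.3% and 6.8% of WT and 32.4% and 26.0% of IkBKO gate cells (10.9%, 15.7%, 50.7% and 40.8% before thinning). In cells with at least 5 Car1 UMIs the thinned shares were 4.1% (2 of 49) and 0% (0 of 8) in WT and 24.9% and 8.2% in IkBKO, at median depths of 10263 to 23719 UMIs. Cd74 had a UMI in 5.8% and 4.7% of WT and 33.3% and 27.6% of IkBKO gate cells (11.5%, 10.1%, 46.1% and 40.8% before thinning), against 10.2% (5 of 49) and 12.5% (1 of 8) of WT and 20.9% and 6.8% of IkBKO Car1-high cells. The IkBKO gate shares of both genes thus lay above those of Car1-high cells of the same pool, for H2-Aa in replicate 1 by little. The WT gate shares did not stand clear of them, and for Cd74 lay below.

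The promoters of H2-Aa and H2-Eb1 are shown because these genes had the largest fold changes among H2-Aa, H2-Ab1 and H2-Eb1, the classical class II chains. Promoters of the classical chains are known to carry a Y box, CTGATTGG, bound by NF-Y beside the elements to which CIITA is recruited. The 150 bases before the start (RefSeq, GRCm38.p6) lie at chr17:34287824-34287973 on the minus strand for H2-Aa and at chr17:34305717-34305866 on the plus strand for H2-Eb1, and capitals mark CTGATTGG.
H2-Aa: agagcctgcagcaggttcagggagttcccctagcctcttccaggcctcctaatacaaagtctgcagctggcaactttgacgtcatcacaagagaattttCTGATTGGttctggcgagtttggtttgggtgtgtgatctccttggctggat
H2-Eb1: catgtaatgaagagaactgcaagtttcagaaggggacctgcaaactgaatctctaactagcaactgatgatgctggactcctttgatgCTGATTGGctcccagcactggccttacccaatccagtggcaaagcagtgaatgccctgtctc
CTGATTGG or its complement CCAATCAG occurred in 4.1% of the 27025 promoters of 250 bases. No match was found in the promoters of H2-DMa, H2-DMb1 and H2-DMb2, which were called higher as well. The Y box contains ATTGG, so each of its matches is also a match to the CCAAT box.

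Immediate-early genes, which cells induce within minutes of a signal, were lower in IkBKO gate cells. Of 13 tested, 0 were higher and 8 lower, and all 13 had a fold change below 0, with a median of −0.78 on the log2 scale. Of all genes 1.98% were called lower in the gate. Fos (chr12:85473890-85477273, plus strand), a subunit of the AP-1 factor, stood at 73.4 and 71.6 CPM in WT against 16.2 and 16.8 CPM in IkBKO (log2 −2.10, SE 0.15, adjusted p = 1.1e-16). Its partner Jun stood at 155 and 170 against 99.1 and 87.9 CPM (log2 −0.78, SE 0.10, adjusted p = 1.7e-08), and the RNA-binding protein gene Zfp36 at 34.2 and 41.2 against 13.0 and 15.3 CPM (log2 −1.39, SE 0.17, adjusted p = 1.5e-08). The genotypes did not overlap for any of the 3. Junb, at 49.4 and 51.6 against 44.5 and 37.2 CPM, did not pass (adjusted p = 0.26). In non-mitotic cells of the same pools 10 of 14 were lower, with a median of −0.77, where 3.38% of all genes were called lower. Without 1 pool 1 (without WT replicate 2) to 6 of the genes were called lower, Fos in every case, and DESeq2 called 2.

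Transcripts of 2 of the IκB genes were low in IkBKO gate cells. Nfkbie, encoding IκBε (chr17:45555703-45563169, plus strand), stood at 11.2 and 10.9 CPM in WT against 2.22 and 1.12 CPM in IkBKO (log2 −2.80, SE 0.41, adjusted p = 7.5e-07). Nfkbib, encoding IκBβ (chr7:28758251-28767512, minus strand), stood at 21.7 and 16.9 against 5.40 and 6.54 CPM (log2 −1.60, SE 0.26, adjusted p = 1e-05). For both genes each IkBKO pool lay below each WT pool, and the labels do not say whether either gene was altered. Nfkbia, encoding IκBα, stood at 49.1 and 76.9 against 55.3 and 63.8 CPM (log2 −0.06, SE 0.12, adjusted p = 0.89). Of the NF-κB side, Nfkb2 (p100 and p52) was higher, at 8.46 and 8.09 against 15.3 and 14.5 CPM (log2 0.87, SE 0.26, adjusted p = 0.032), as was the nuclear IκB gene Bcl3, at 8.80 and 6.32 against 15.9 and 13.1 CPM (log2 0.98, SE 0.27, adjusted p = 0.015). Neither passed without the cells of other lineages (adjusted p of 0.14 and 0.15). Rela, Rel, Nfkb1, Relb, Ikbkb, Chuk, Ikbkg, Nfkbid and Nfkbiz did not pass either, so 4 of the 14 family members were called. Of all genes 5.20% were called. DESeq2 called 0 of the 14, with adjusted p of 0.11 for Nfkbie and 0.31 for Nfkbib. Nfkbie was not called at 5000 UMIs per cell, and Nfkbib not under stricter lineage limits. With 1 pool left out, Nfkbie ranged from −3.29 to −2.21 and Nfkbib from −1.85 to −1.42 on the log2 scale.

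Listed NF-κB targets and interferon-stimulated genes were called more often upwards than downwards. Over all genes 3.22% were called higher and 1.98% lower. Of 29 NF-κB targets tested, 7 were higher and 0 lower, with a median of 0.24, and DESeq2 called 1 higher and 0 lower. Irf1, an interferon and NF-κB response factor, stood at 32.8 and 38.4 against 51.5 and 63.3 CPM (log2 0.72, SE 0.14, adjusted p = 0.00019), and the adhesion molecule Icam1 at 11.5 and 12.6 against 18.8 and 23.0 CPM (log2 0.82, SE 0.21, adjusted p = 0.0068). Of 25 interferon-stimulated genes 7 were higher and 1 lower, and DESeq2 called 2 higher and 0 lower. The GTPase gene Gbp3 stood at 13.9 and 8.35 against 32.1 and 24.4 CPM and the surface protein gene Ly6e at 560 and 564 against 772 and 763 CPM, whereas Ifi27l2a was lower, at 90.0 and 69.0 against 52.1 and 41.6 CPM (log2 −0.73, SE 0.12, adjusted p = 1.1e-05). Without cells of other lineages 3 of 27 NF-κB targets and 8 of 25 interferon-stimulated genes were higher, and without WT replicate 2 only 1 of each list was called. Of 13 tested genes of a stem cell ageing list, 5 were higher and 1 lower, but 0 of 15 were called without WT replicate 2 and 1 of 13 with DESeq2. Nupr1, a stress-induced chromatin protein, stood at 3.72 and 2.53 against 22.9 and 12.3 CPM, Mt1, a metallothionein, at 10.8 and 8.35 against 41.0 and 20.4 CPM, and Ehd3, an endocytic ATPase, at 0.68 and 1.01 against 13.0 and 7.50 CPM.

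**Figure D4:**
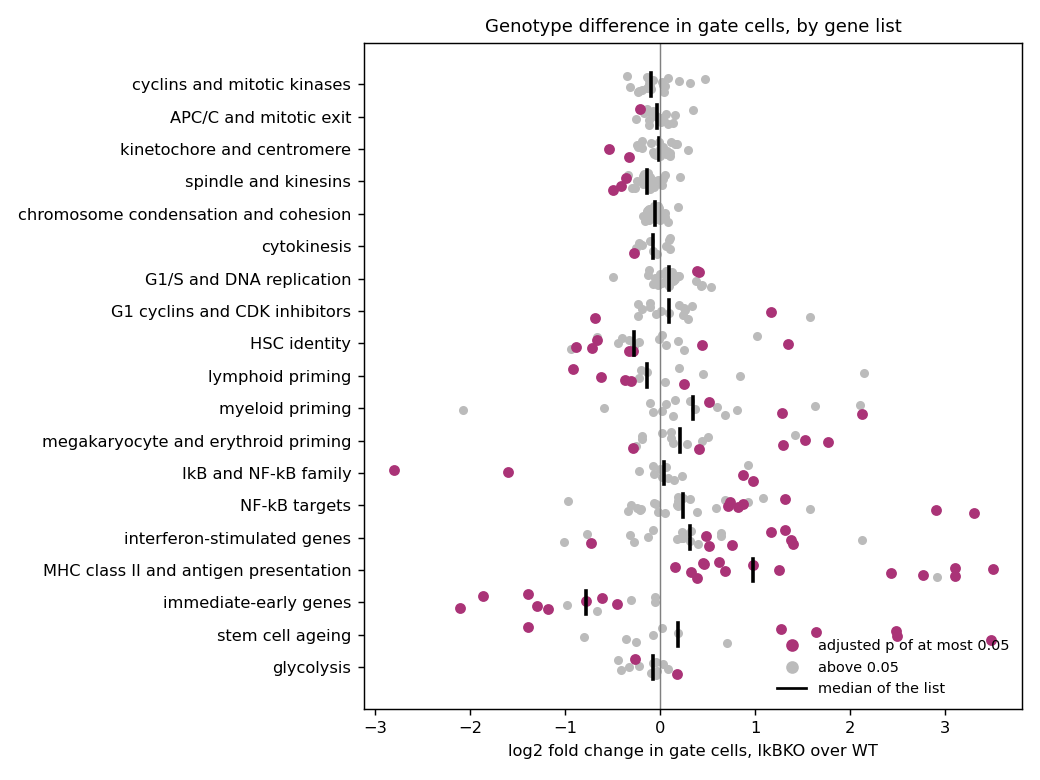
log2 fold changes, IkBKO over WT, in gate cells (horizontal axis) for every tested gene of each list, with called genes in purple, the others in grey and the list median as a black bar. Antigen presentation lies to the right (median 0.98, 14 of 15 called), immediate-early genes to the left (median −0.78, 8 of 13 called), and the mitosis lists near 0.

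The mitosis genes that did not enter the rule were called only downwards in IkBKO, with small fold changes. The rule picks cells by genes of the same programme, so no likeness of the genotypes is read from these values. Of 122 tested members of the 6 mitosis lists, none of them a gene of the rule, 0 were higher and 7 lower, with a median of −0.07. Over all genes 3.22% were called higher and 1.98% lower. Of the 122, 81 had a fold change below 0 and 41 above. Those 7 were Hjurp, Aspm, Hmmr, Cenpf, Arl6ip1, Prc1 and Ube2c, at log2 fold changes of −0.54 to −0.21. Hjurp, the chaperone that loads Cenpa onto centromeres, stood at 189 and 288 CPM in WT against 132 and 189 CPM in IkBKO (log2 −0.54, SE 0.08, adjusted p = 2.1e-06). Hmmr, a spindle assembly factor, stood at 157 and 263 against 113 and 198 CPM (log2 −0.41, SE 0.08, adjusted p = 0.00056), and Ube2c, the ubiquitin-conjugating enzyme of the anaphase-promoting complex, at 460 and 666 against 401 and 548 CPM (log2 −0.21, SE 0.06, adjusted p = 0.037). For each of them IkBKO replicate 2 lay above WT replicate 1, so the genotypes were apart only within a library. None of the 7 was called without WT replicate 1, without IkBKO replicate 1 or without WT replicate 2, and 3 of them (Hjurp, Aspm and Hmmr) were called without IkBKO replicate 2. Without WT replicate 2, Ube2c, Cenpf and Arl6ip1 gave 0.02, 0.01 and 0.00. By DESeq2 0 of the 122 were called.

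In G1/S genes 2 of 34 were higher and 0 lower in IkBKO, where 3.22% of all genes were called higher. Tyms, which makes thymidylate, stood at 84.2 and 96.4 against 125 and 109 CPM (log2 0.39, SE 0.10, adjusted p = 0.013), and the thymidine kinase gene Tk1 at 61.6 and 56.9 against 80.7 and 73.4 CPM (log2 0.41, SE 0.12, adjusted p = 0.023). Neither passed without the cells of other lineages (adjusted p of 0.18 and 0.47), without any 1 of the 4 pools or with DESeq2. Of 17 G1 cyclins and inhibitors, Cdkn1a, the p21 inhibitor, was higher, at 13.5 and 5.06 against 19.1 and 18.7 CPM (log2 1.17, SE 0.27, adjusted p = 0.0064), and the antiproliferative gene Btg2 lower, at 60.2 and 67.0 against 29.6 and 47.5 CPM (log2 −0.68, SE 0.14, adjusted p = 0.00044). Both kept their call without cells of other lineages. They lost it without the block, under stricter lineage limits, at 5000 UMIs per cell and with DESeq2. With 1 pool left out, Cdkn1a ranged from 0.46 to 1.96 and Btg2 from −1.03 to −0.44 on the log2 scale.

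In the fit over all 4 pools more stem cell identity and lymphoid genes were called lower than higher in IkBKO gate cells, and more myeloid and erythroid genes higher than lower, but these balances did not hold in every setting. Of 20 stem cell identity genes, 2 were higher and 5 lower, where 3.22% of all genes were called higher and 1.98% lower. The counts were 2 and 1 with DESeq2, 2 and 2 without cells of other lineages, 1 and 1 without WT replicate 1, and 1 and 0 without the block, without IkBKO replicate 1 or without WT replicate 2. Hlf stood at 251 and 432 CPM in WT against 109 and 269 CPM in IkBKO (log2 −0.88, SE 0.10, adjusted p = 2.4e-05), and the glycosyltransferase gene Gcnt2 at 118 and 175 against 72.8 and 104 CPM (log2 −0.71, SE 0.10, adjusted p = 1.4e-07). Ly6a, which encodes the Sca-1 antigen used in the sort, was the exception with the largest rise, at 31.1 and 40.7 against 81.7 and 98.1 CPM (log2 1.35, SE 0.12, adjusted p = 2e-12), and the WT and IkBKO pools did not overlap. Hlf overlapped between the genotypes across libraries, because IkBKO replicate 2 lay above WT replicate 1.

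Of 13 tested lymphoid genes 1 was higher and 4 lower, against 3 and 2 under stricter limits, 2 and 0 without IkBKO replicate 1, and 0 and 0 without the block, without WT replicate 1 or without WT replicate 2. For these and the next lists, 3.22% of all genes were called higher and 1.98% lower over the 4 pools. The chromatin organiser Satb1 stood at 84.6 and 97.1 against 35.6 and 57.9 CPM (log2 −0.92, SE 0.12, adjusted p = 1.8e-07), and the cytokine receptor Flt3 at 72.1 and 95.8 against 58.2 and 70.0 CPM (log2 −0.37, SE 0.11, adjusted p = 0.042). Tox, a transcription factor of lymphocyte development that is on no list, stood at 27.1 and 26.6 against 6.04 and 8.29 CPM (log2 −1.83, SE 0.22, adjusted p = 8e-09). Of 18 myeloid genes 3 were higher and 0 lower, namely Plac8 (959 and 798 against 1345 and 1122 CPM), the receptor subunit Csf2rb (30.8 and 10.1 against 56.9 and 34.0 CPM) and the M-CSF receptor Csf1r (5.41 and 0.76 against 15.3 and 8.45 CPM). Leaving out 1 pool moved Csf2rb between 0.53 and 2.22 and Csf1r between 1.06 and 3.94 on the log2 scale, against 1.28 and 2.13 over all pools. Neither was called without IkBKO replicate 1 or without WT replicate 2, and Csf1r had too few UMIs to be tested without cells of other lineages. Without WT replicate 2, and without the block, 0 myeloid and 0 megakaryocyte and erythroid genes were called. The 4 megakaryocyte and erythroid genes that were higher, of 16 tested with 1 lower, were Hbb-bt, Gata1, Apoe and Klf1. A single cell held 80.0% of the Hbb-bt UMIs of IkBKO replicate 1, and without that pool Gata1 and Apoe gave −0.09 and −0.30 in place of 1.29 and 0.41. Fits without 1 pool carried no replicate block, so that fit set both WT libraries against 1 IkBKO library. Within replicate 2 both genes were higher in IkBKO, Gata1 at 5.06 against 8.29 CPM and Apoe at 195 against 287 CPM. Among all called genes named here, Fcnb, Mzb1 and Vpreb3 rested on few cells, like Hbb-bt: 97.1% of the Mzb1 UMIs of WT replicate 2 came from 1 cell, and Fcnb was seen in 3 and 5 WT cells. The lineage genes of the rule itself, given without a test, stood for Mpo at 290 and 160 CPM in WT against 338 and 287 CPM in IkBKO, and for Dntt at 19.96 and 19.2 against 8.90 and 11.6 CPM.

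Few genes were called for a genotype difference in gate cells that was different from that in non-mitotic cells. The difference of the genotype differences was tested over 8 pools with edgeR, with the pool of origin as a block. Of 12498 genes, 4 had a higher (0.0320%) and 10 a lower value (0.0800%) in the gate (0.112% in all), and 782 had an unadjusted p under 0.05. In the same test without the block 0 were called, with 187 at an unadjusted p under 0.05. With 2 residual degrees of freedom, a gene that was not called is not shown to behave alike in both kinds of cells. The 2 genotype comparisons themselves gave 559 of 10752 called genes (5.20%) in the gate and 1189 of 13056 (9.11%; 5.73% higher and 3.38% lower) in non-mitotic cells, from pools of different depth. S100a6, a calcium-binding protein gene, stood at 98.1 and 58.4 CPM in WT against 94.1 and 90.0 CPM in IkBKO gate cells, and at 124 and 78.7 against 252 and 189 CPM in non-mitotic cells. Its log2 fold change was 0.32 (SE 0.13) in the gate and 1.16 (SE 0.07) in non-mitotic cells, and the difference of −0.83 (SE 0.11) had an adjusted p of 0.0055. Itga4, an integrin subunit used in homing, stood at 153 and 158 against 121 and 157 CPM in the gate and at 117 and 120 against 136 and 179 CPM in non-mitotic cells (difference −0.56, SE 0.08, adjusted p = 0.0058). Klf2, a quiescence-associated factor in lymphocytes, stood at 12.9 and 10.1 against 9.85 and 11.2 CPM in the gate and at 14.5 and 11.6 against 4.49 and 4.42 CPM in non-mitotic cells (difference 1.47, SE 0.27, adjusted p = 0.046).

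The other 5 called genes, outside the rule for naming, were Il1rl1, Cd209a, Lgals3, Vim and Ube2c. Without cells of other lineages 0 genes were higher and 1 lower, and 0 of the 14 were called. The size of the difference fell for some genes and not for others. Cpa3 and Ms4a6c are on the lists by which those cells were set apart, so their values in this setting are no test. Cpa3, a mast cell protease, gave a difference of −2.13 (SE 0.23, adjusted p = 0.0082) over all cells and −0.07 (adjusted p = 0.99) without cells of other lineages, S100a6 gave −0.57 (adjusted p = 0.15) and Klf2 0.61 (adjusted p = 0.93). Echs1 gave 0.60 over all cells and 0.59 without them (adjusted p = 0.073), Ms4a6c −0.63 and −0.55 (adjusted p = 0.47), Vim −0.43 and −0.35 (adjusted p = 0.062) and Ube2c −0.85 and −0.96 (adjusted p = 0.12). Mast cell and basophil markers summed to 84.9 and 42.7 CPM in WT against 70.2 and 56.3 CPM in IkBKO gate cells, and to 47.4 and 26.0 against 147 and 163 CPM in non-mitotic cells.

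**Figure D5:**
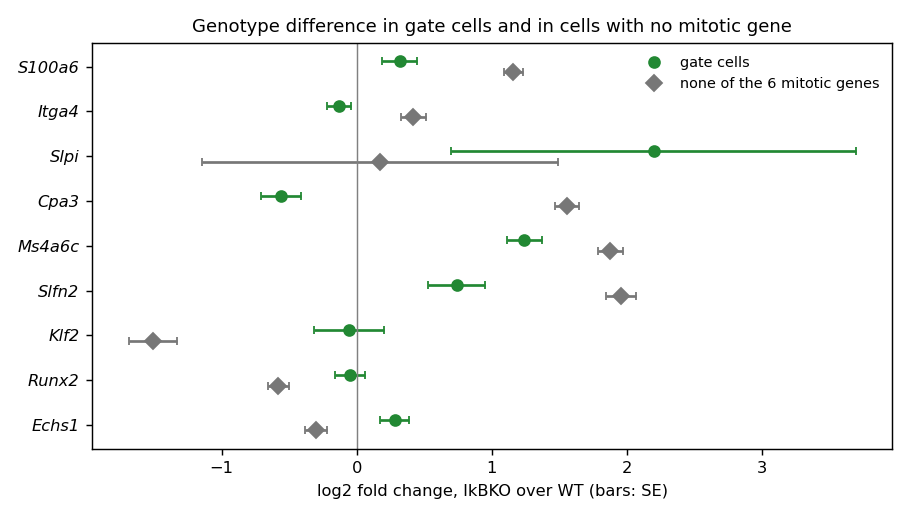
log2 fold changes, IkBKO over WT, with SE as bars (horizontal axis), for 9 genes whose genotype difference was called different between gate cells (green circles) and non-mitotic cells (grey diamonds). S100a6 lies at 0.32 in the gate and 1.16 in non-mitotic cells, and Klf2 at −0.06 and −1.51.

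Surface antibody counts, which the rule did not use, were present for Flt3, CD48 and CD150 in replicate 1 only, so they have no replicate and no test. CD48, an adhesion molecule absent from the most primitive stem cells, had a median of 512 counts per cell in WT and 624 in IkBKO gate cells, with quartiles of 356 to 686 and 480 to 821, against 419 and 511 in non-mitotic cells. In mitotic cells past a lineage limit the medians were 607 and 589.5. CD48 was thus higher in gate than in non-mitotic cells and, among gate cells, higher in IkBKO than in WT, with quartile ranges that overlapped, while in WT the mitotic cells past a limit lay above the gate. Flt3 had medians of 118 and 126 in the gate and 128 and 124 in non-mitotic cells, and CD150, encoded by Slamf1, 102 and 112 in the gate and 113 and 110 in non-mitotic cells. The antibody counts were not scaled for depth, which was higher in gate than in non-mitotic cells.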

How the data were processed

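The deposited matrices hold raw UMI counts per gene and barcode for 32285 genes and antibody tags, not normalized by the authors. Per the file headers Cell Ranger 6.0.0 wrote them. Cell Ranger 7.0, Seurat 4.3.0 and build mm10 stand in the submitters' processing notes. The deposited cell table gave each barcode's quality call and genotype, and the sources used here do not give its rules. No doublet caller was run, and cells with the 5% highest UMIs were left out as an alternative.

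Raw counts were summed over gate cells per replicate and genotype and tested with edgeR 4.0.16 in R 4.3.3 (TMM scaling, filterByExpr, robust quasi-likelihood F test), with the replicate as a block since the labels' protocols say that the conditions of a replicate were multiplexed together. This left 1 residual degree of freedom, and edgeR shared the spread across genes. Deviations of same-library pools correlated at 0.372 over 10752 genes. DESeq2 1.42.0 was an alternative. Fits with 1 pool left out carried no replicate block. The steps were tested on simulated counts. CPM are UMIs over 1000000 UMIs of the pool. Shares were also computed after thinning cells to 5000 and 3000 UMIs. The 26 gene lists and the members were chosen with earlier results of these data known. Genes named were those with the 12 largest rises and 12 largest falls among called genes with a name that moved alike in both replicates with at least 10 CPM in 1 genotype, the IκB and NF-κB family, up to 4 genes of the smallest p per list, and up to 5 per direction for the difference of differences. H2-Ab1, B2m and the other members given beyond this were chosen after their values were seen. Of the remaining lists, glycolysis had 1 of 13 higher and 1 lower, mature neutrophil markers 0 of 5 called, B cell 1 of 6 lower, T and NK 1 of 3 higher, erythroid 0 of 1, mast cell and basophil 1 higher and 1 lower of 5, and stroma 0 of 1. Coordinates are from GENCODE M21 (GRCm38), which held 32235 of the identifiers (99.8%).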

Additional observations from a re-analysis of the deposited data

Results flagged for a closer look

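The genotype difference in gate cells differed from that in non-mitotic cells, by the test of the difference itself, for 9 named genes. The value was higher in the gate for Slpi, a protease inhibitor, at 2.08 on the log2 scale (SE 0.30, edgeR adjusted p = 0.0077), for Klf2 at 1.47 (SE 0.27, adjusted p = 0.046), for the mitochondrial enoyl-CoA hydratase gene Echs1 at 0.60 (SE 0.12, adjusted p = 0.047) and for the transcription factor gene Runx2 at 0.53 (SE 0.10, adjusted p = 0.047). It was lower in the gate for Cpa3 at −2.13 (SE 0.23, adjusted p = 0.0082), Slfn2 at −1.21 (SE 0.22, adjusted p = 0.032), S100a6 at −0.83 (SE 0.11, adjusted p = 0.0055), Ms4a6c at −0.63 (SE 0.11, adjusted p = 0.02) and Itga4 at −0.56 (SE 0.08, adjusted p = 0.0058). Without the block none of the 9 passed. Without cells of other lineages none passed either, at adjusted p-values of 0.073 to 0.99, and the differences were 0.59 for Echs1 and −0.55 for Ms4a6c, near those over all cells, and 0.33 for Slpi and −0.07 for Cpa3, near 0. Cpa3 and Ms4a6c are on the lists by which cells of other lineages were set apart, so their values in that setting are no test. With cells thinned to 5000 UMIs S100a6, Ms4a6c and Cpa3 passed. Slpi stood at 15.2 and 6.07 CPM in WT against 14.6 and 76.9 CPM in IkBKO gate cells, and at 11.7 and 3.84 against 4.25 and 10.9 CPM in non-mitotic cells. Its rise in the gate was thus seen in replicate 2 only, while in replicate 1 its level was lower in IkBKO non-mitotic cells.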

How the results depend on the processing

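The share of all cells in the gate, 1.44 points higher in IkBKO, ranged from 0.40 to 2.28 points over the other settings and from 0.32 to 2.56 with 1 replicate left out, and came to 4.86 with the cells within the 4 limits as the denominator. That last share difference of 4.86 points was 2.49 at 5000 UMIs per cell, 1.6 at 3000, 6.42 with at least 3 and 3.08 with at least 5 mitotic genes, 4.42 under stricter lineage limits, 5.58 without the cells of most UMIs and 4.51 without cells of other lineages, a setting chosen after seeing the data; with 1 replicate left out it was 4.81 to 4.92.

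Against 346 higher and 213 lower genes, 202 and 65 were called under stricter limits (221 of these among the 559), 180 and 94 at 5000 UMIs (172 among the 559), 179 and 126 without cells of other lineages (257) and 42 and 13 with DESeq2 (54). Leaving out 1 pool gave 20 to 188 higher and 10 to 112 lower genes. Without the replicate block 52 and 19 were called, 70 of them among the 559, and the pairing of pools came from the shared library. The other settings stayed within 1.5 times the counts. For the difference of differences, 4 higher and 10 lower genes became 0 and 0 without the replicate block, 2 higher with RLE scaling, 9 and 22 at 5000 UMIs, 16 lower under stricter limits, and 0 and 1 without cells of other lineages. The cause was not tested.

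Called genes changed sign in few cases. Fits with 1 pool left out carried no replicate block, so the difference between libraries also enters their values. Vpreb3 gave 2.40 at 5000 UMIs and −3.25 to 0.08 (without WT replicate 1) over the pools left out, and Cpa3 0.10 without cells of other lineages. Those cells were set apart in part by Cpa3 itself. With 1 pool left out, Gata1 ranged from −0.09 to 2.22 and Apoe from −0.30 to 1.22 (both lowest without IkBKO replicate 1, Apoe −0.20 without WT replicate 2), Mzb1 from −6.06 to 0.18, Ube2c from −0.43 to 0.02, Cenpf from −0.66 to 0.01 and Arl6ip1 from −0.54 to 0.00 (all 4 highest without WT replicate 2). Of the 74 named calls 74 were kept with RLE scaling and without a filter, 23 with DESeq2, 27 without the replicate block, and 14 of 73 without WT replicate 2.

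Pools of 2956018 to 6270102 UMIs limit what can be seen of genes under a few CPM, and 2 pools per genotype limit every call.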
